A study of Mus musculus with 4 samples.

Results

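Bdnf, Ntf3, Ntrk2, Ntrk3, Ngfr and Sort1 encode 2 neurotrophins and the receptors that bind them. They were taken by gene symbol from 4 single-nucleus RNA libraries of mouse thalamus, and all 6 were found among the 40091 gene identifiers listed there. The NS group (C1 and C2 in the labels) was WT mice injected with saline. The COL group (M1 and M2) was WT mice injected with Coll IV, type IV collagenase, an enzyme that digests the basement membrane of vessels and causes bleeding, at 0.01 U per 10 nl. In both groups the mice were C57BL6 animals aged 7 to 8 weeks, the injection was aimed at the right VPM and VPL, the sensory relay nuclei of the thalamus, and thalamic tissue was collected 7 days later. Each library pooled 3 mice and each group held 2 libraries, so variation between single animals could not be seen, and every test below measured the spread between pools. With 2 libraries against 2, an exact permutation test cannot go below p = 0.333, and the tests were therefore made with edgeR's quasi-likelihood model, which pools the estimate of spread across genes.

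Neurotrophins are secreted proteins that support the survival of neurons and adjust the strength of their synapses. Brain-derived neurotrophic factor, the product of Bdnf, acts mainly through TrkB, the product of Ntrk2, and neurotrophin-3, the product of Ntf3, acts mainly through TrkC, the product of Ntrk3. Both Trk receptors are also made as truncated forms without a kinase, and in astrocytes the truncated TrkB is the usual form. The p75 receptor, the product of Ngfr, binds all neurotrophins, and with sortilin, the product of Sort1, it forms the receptor for their uncleaved precursors. BDNF in the pain pathway has been studied widely, which gives the comparison of COL with NS its question, since bleeding into VPM and VPL is used as a model of central pain after stroke.

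The counts used here sum over all transcripts of a gene, so full-length and truncated receptors were not separated. In the GENCODE M21 annotation of build GRCm38, Bdnf lies on chr2:109674700-109727007 on the plus strand with 11 coding transcripts of 249 to 289 codons, which differ mainly in their first exons. Ntf3 lies on chr6:126101412-126166910 on the minus strand and spans 65.5 kb. Ntrk2 lies on chr13:58806569-59133970 on the plus strand, spans 327.4 kb and has 7 coding transcripts of 466 to 821 codons. Ntrk3 lies on chr7:78175959-78738012 on the minus strand, spans 562.1 kb and has 6 coding transcripts of 82 to 864 codons. Both are therefore far longer than Ngfr, on chr11:95568818-95587735 on the minus strand with 18.92 kb and a coding sequence of 427 codons, and than Sort1, on chr3:108284082-108361511 on the plus strand with 77.43 kb and coding sequences of 825 to 858 codons. Antisense genes overlap Bdnf (Gm45346), Ntrk2 (Gm47423 and 4930415C11Rik), Ntrk3 (4921513I08Rik and Gm9885) and Sort1 (Gm12523), and whether the counting used strand is not given in the sources used here.

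Bdnf is driven from several alternative promoters, some of which respond to neuronal activity, in part through CREB, a transcription factor that binds the sequence TGACG or its complement CGTCA. RefSeq start sites on GRCm38.p6 gave 7 windows of 250 bases upstream for Bdnf, 2 for Ntf3, 1 for Ntrk2 and 1 for Ngfr. Those letters, on either strand, were present in 1 of the 7 Bdnf windows and in none of the other 4, against 5836 of 32851 windows of all genes (17.8%). The window that holds them, chr2:109692186-109692435 on the plus strand, is shown because the Bdnf counts below sum over this start and all the others, with CGTCA in capitals.
Bdnf window: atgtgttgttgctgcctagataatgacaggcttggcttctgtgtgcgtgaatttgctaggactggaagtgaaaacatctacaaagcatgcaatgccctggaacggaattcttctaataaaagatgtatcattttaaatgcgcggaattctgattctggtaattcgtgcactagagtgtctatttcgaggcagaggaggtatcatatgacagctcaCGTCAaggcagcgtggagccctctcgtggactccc
A match of these letters is a description of the window and was not tested as a binding site.

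After removal of nuclei with 50 genes or fewer or with at least 5% mitochondrial UMIs (UMI, unique molecular identifier, 1 per captured RNA molecule), the libraries held 9673 and 10422 NS nuclei and 5931 and 6265 COL nuclei, with 68723738 to 77546840 UMIs each. The median nucleus had 6489 and 4649 UMIs in NS and 8664 and 8691 in COL. Pairs of libraries shared 8 to 31 barcodes. Cell types were assigned to each nucleus by markers that did not include the 6 genes: 14775 neurons, 9352 oligodendrocytes, 2204 astrocytes, 1342 microglia, 1064 oligodendrocyte precursor cells (OPC), 216 macrophages and 122 T and NK cells, with 2620 nuclei called mixed and 471 unassigned. Astrocytes numbered 1040 and 815 in NS and 143 and 206 in COL, a difference in nuclei recovered that was not tested, and COL gave 50 and 64 of the 122 T and NK cells. The clusters separated by group: 14 of 24 held at least 95% of their nuclei from 1 group, together 89.49% of all nuclei, and the astrocytes of NS were mostly in cluster 5 (99.46%) and those of COL in cluster 23 (98.28%). The labels give no batch of preparation or sequencing, so batch and group cannot be told apart. Among neurons, 3489 were called thalamic glutamatergic, with at least 3 of Tcf7l2, Lef1, Synpo2, Necab1 and Prkcd. Another 1915 were other glutamatergic, 5514 were GABA neurons, 137 were medial habenula neurons and 3706 had no clear transmitter class. Thalamic glutamatergic neurons made up 12.96% and 21.9% of neurons in NS and 46.9% and 20.71% in COL, and 98 of the 137 habenula neurons lay in COL replicate 1, so the pools did not hold the same mix of neurons.

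Most UMIs of 4 of the 6 genes came from neurons in every library. Neurons held 77.4 to 85.1% of the Bdnf UMIs of a library, 83.1 to 88.8% of those of Ntf3, 73.55 to 85.3% of those of Ntrk2 and 76.3 to 82.8% of those of Ntrk3. Neurons also held the most of the other pair in each library, 46.6 to 60.5% of Sort1 UMIs and 47.06 to 62.9% of the few Ngfr UMIs. Oligodendrocytes held 22.7 to 37.0% of Sort1 UMIs and 24.4 to 45.1% of Ngfr UMIs. Astrocytes held 11.7% and 9.14% of Ntrk2 UMIs in NS and 2.71% and 5.275% in COL, in step with the number of astrocytes recovered. Neurons also held most UMIs of all genes, 56140385 of 77546840 and 44750324 of 68723738 in NS. In COL they held 49957362 of 69489118 and 43917857 of 69495483. The shares of a gene depend on how many nuclei of each type were recovered and how deep they were, and levels within a type are given next.

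**Figure D1:**
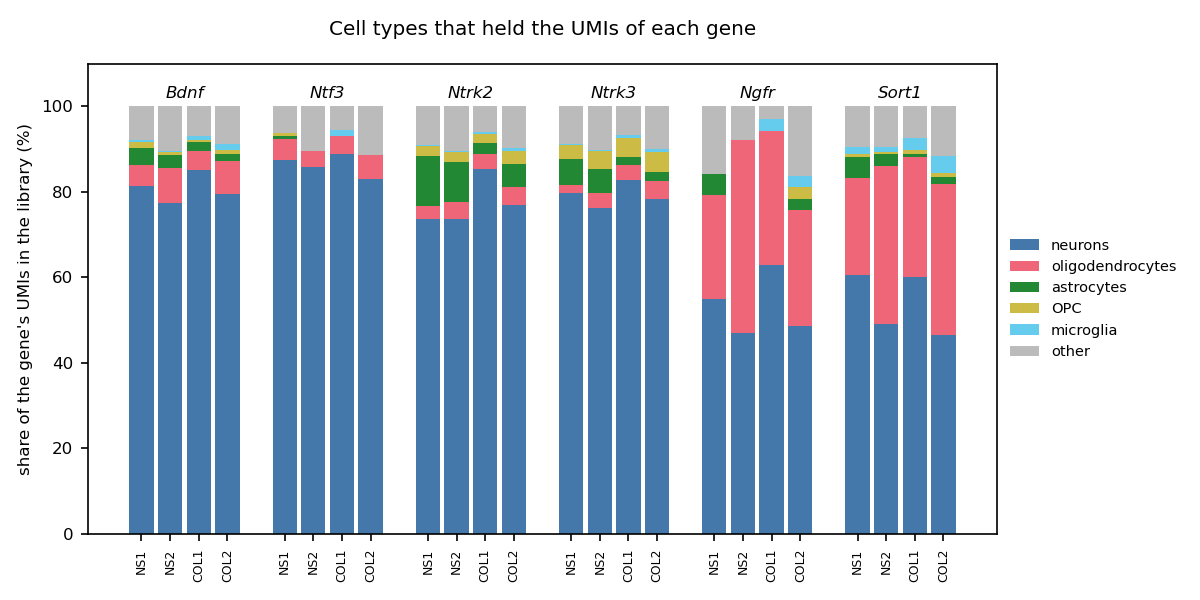
Share of each gene's UMIs, in percent of the gene's UMIs in a library, that lay in each cell type (colours), with 1 bar per library; "other" is mixed, unassigned and rare types. Neurons fill 73.55 to 88.8% of the bars of Bdnf, Ntf3, Ntrk2 and Ntrk3, and oligodendrocytes take 22.7 to 37.0% of the Sort1 bars.

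Bdnf was a low-count gene whose mean level was higher in neurons than in the 4 glial types. Over all nuclei it had 1340 and 1142 UMIs in the NS libraries and 966 and 895 in the COL libraries. Its level in neurons, as UMIs per 1000000 UMIs of those nuclei (CPM), was 19.45 and 19.75 in NS and 16.45 and 16.2 in COL, whereas oligodendrocytes had 7.64 and 7.65 in NS and 4.41 and 6.02 in COL. All neuronal libraries lay above all oligodendrocyte libraries, and the joint edgeR fit of 5 types by 4 libraries, with library as a block, gave a log2 difference of 1.43 ± 0.17 (SE) with adjusted p = 2.387e-07. OPC had 11.5 and 5.65 CPM in NS and 4.50 and 4.01 in COL, and microglia had 9.92 and 6.19 in NS and 6.14 and 6.30 in COL. The neuronal level exceeded that of OPC by 1.54 ± 0.24 on the log2 scale (edgeR adjusted p = 1.894e-05) and that of microglia by 1.62 ± 0.25 (adjusted p = 1.013e-05), and these 3 glial types did not differ from each other beyond their spread (adjusted p from 0.628 to 0.877).

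Astrocytes stood between neurons and the other glia for Bdnf. They had 13.65 and 11.7 CPM in NS and 20.1 and 10.5 in COL, which rest on 56, 34, 19 and 16 UMIs. The library with the highest value, COL replicate 1, lay above every neuronal library, but 1 nucleus held 6 of its 19 UMIs, and the remaining 3 lay below all of them. The difference of neurons from astrocytes was 0.49 ± 0.19 (edgeR adjusted p = 0.0356), and it no longer passed without NS replicate 1 (adjusted p = 0.0808), NS replicate 2 (0.231) or COL replicate 2 (0.105), nor with the clusters (0.0592), doublets removed (0.0536) or thinned nuclei (0.0554). Astrocytes were above oligodendrocytes by 0.93 ± 0.21 (oligodendrocytes minus astrocytes -0.93, adjusted p = 0.0011), and by 0.67 after thinning (-0.67, adjusted p = 0.0633).

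Beyond the level, few nuclei showed a Bdnf molecule. After nuclei under 2000 UMIs were left out and the others thinned to 2000 UMIs, so that depth was equal, 3.87% and 3.41% of NS neurons and 3.06% and 2.82% of COL neurons had at least 1 Bdnf UMI. The T and NK cells, blood cells found almost only in COL, were used as the comparison for free RNA, although activated T cells can make BDNF and no profile of free RNA was measured. They had median depth 3054 UMIs against 11190 in neurons, and 2.08% (95% exact binomial interval 0.0527 to 11.1%) and 3.28% (0.40 to 11.35%) of them in COL had a UMI, from 3 UMIs in each library before thinning. In CPM these cells had 17.1 (95% exact Poisson interval 3.53 to 50.0) and 14.9 (3.07 to 43.5), level with COL neurons, so neither the share nor the level of COL neurons was distinguishable from theirs at this depth. The share in microglia was 0.524 to 1.62%, from 191 of 300 and 160 of 301 nuclei deep enough in NS and 309 of 316 and 422 of 425 in COL. Intervals here cover counting error only.

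The classes of neurons spanned a wide range of Bdnf levels. Other glutamatergic neurons had 36.8 and 37.9 CPM in NS and 30.0 and 30.6 in COL. Thalamic glutamatergic neurons, whose place within the thalamus is not known from these nuclei, had 17.7 and 15.02 in NS and 20.2 and 14.97 in COL. GABA neurons had 10.8 and 13.1 in NS and 6.145 and 7.96 in COL. The 3 classes kept that order in each of the 4 libraries, and neurons without a clear class lay at 27.3 and 23.9 in NS and 15.6 and 21.1 in COL. No test between classes was made, and their depth differed, with a median of 16430 UMIs in thalamic glutamatergic neurons and 8714 in neurons without a class.

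Nuclei rich in Bdnf were rare in both groups. Nuclei with 5 or more Bdnf UMIs numbered 17 and 15 in NS and 29 and 24 in COL, of which 15, 14, 28 and 24 were neurons. In COL replicate 1, 21 of them were thalamic glutamatergic neurons, and all 29 together held 20.8% of the Bdnf UMIs of the library, against 7.24% and 8.23% in NS and 18.0% in COL replicate 2. COL neurons were also deeper, with medians of 14910 and 14960 UMIs against 9811 and 9239 in NS. Once neurons were thinned to 5000 UMIs, 57 of 4703 (1.21%) and 52 of 3881 (1.34%) NS neurons and 26 of 2841 (0.915%) and 27 of 2634 (1.03%) COL neurons had 2 or more Bdnf UMIs, and the 95% exact binomial intervals of all 4 libraries overlapped.

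Ntf3 was rarer still and was found mostly in neurons. It had 143 and 219 UMIs in the NS libraries and 161 and 195 in the COL libraries. In neurons these came to 2.23 and 4.20 CPM in NS and 2.86 and 3.69 in COL, so NS replicate 1 was the lowest and NS replicate 2 the highest. Oligodendrocytes had 0.651 to 0.96 CPM from 7 to 11 UMIs per library, and astrocytes and OPC had 1 UMI or none in each library. A count of 0 allows up to 1.03 CPM (3 counts of the total) in the astrocytes of NS replicate 2, below the neurons of that library, but up to 3.17 CPM in those of COL replicate 1, where a level like that of neurons could not be told from none. Of the neuron classes, those without a clear transmitter held the highest level in each library, 3.35 and 8.17 CPM in NS and 4.06 and 9.51 in COL, and they held 10 of the 14 nuclei with 5 or more Ntf3 UMIs in COL replicate 2, 4 of 4 in NS replicate 2 and the 1 in NS replicate 1, whereas in COL replicate 1 they held 1 of 7 and thalamic glutamatergic neurons 6. Ntf3 and Ngfr fell below the filter on low counts of the joint fit, and their levels were not tested between types.

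**Figure D2:**
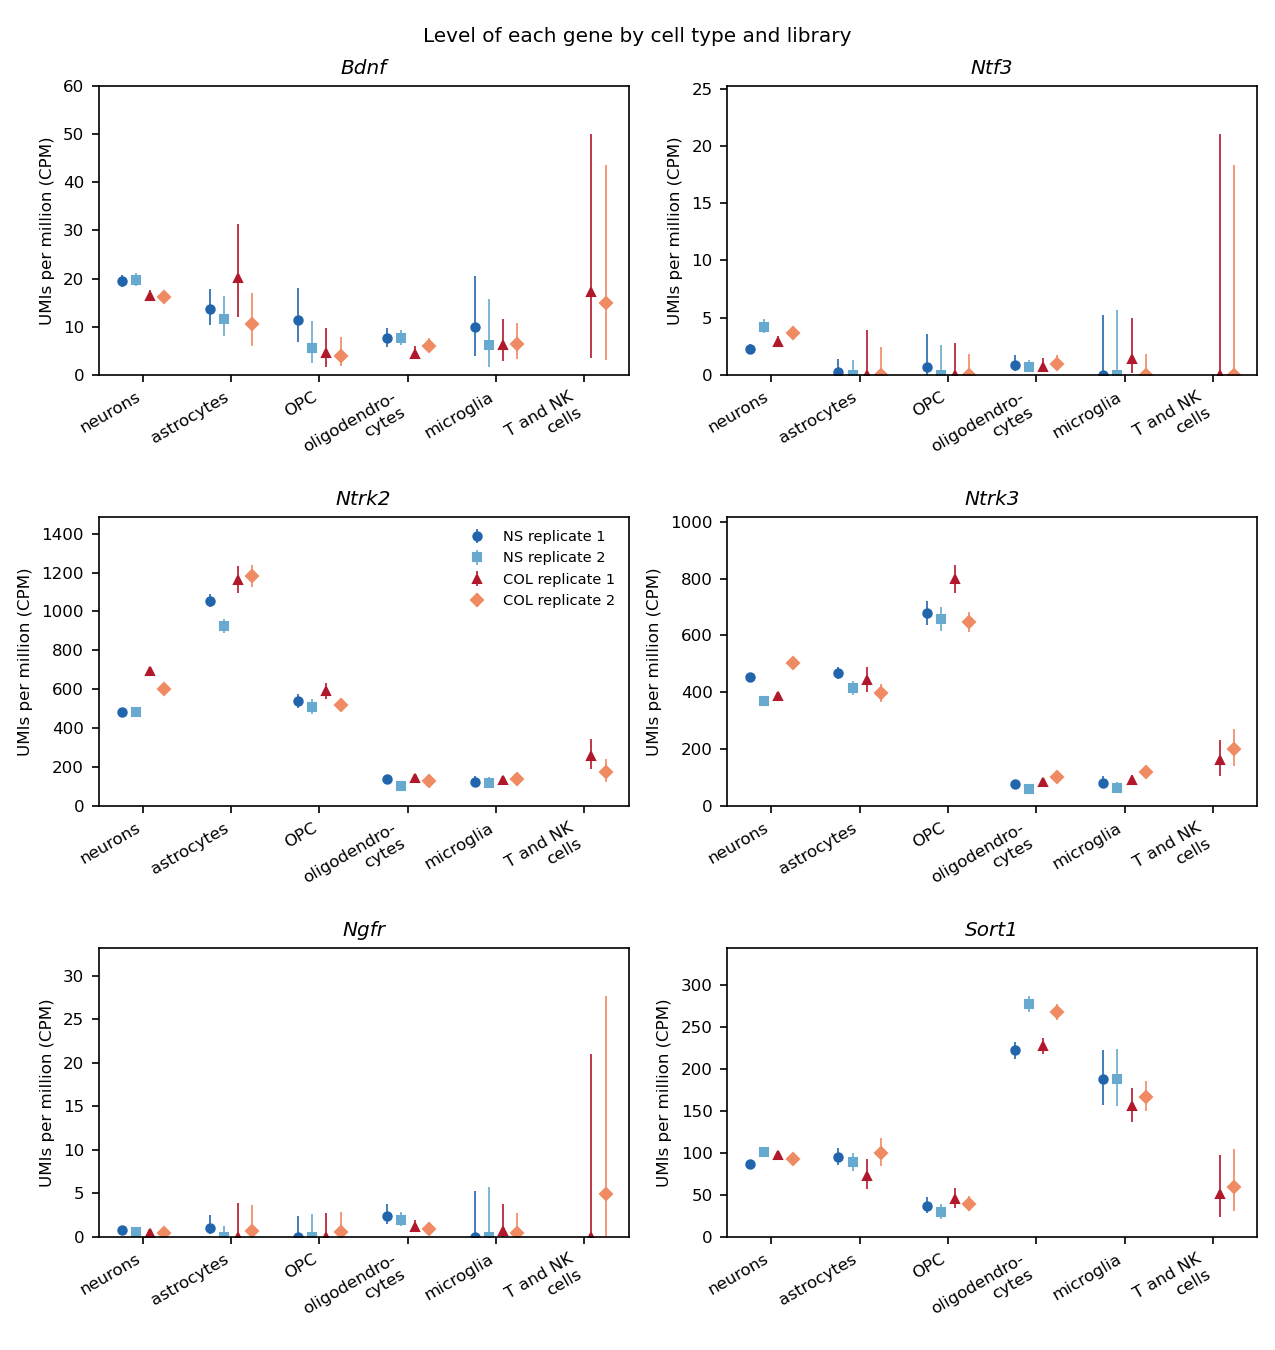
Level of each gene in CPM (UMIs per 1000000, linear axis from 0) in 6 cell types; each point is 1 library (NS replicates 1 and 2, COL replicates 1 and 2) and each bar a 95% exact Poisson interval of its count, and the T and NK cells are shown for COL only. Of the 5 main types, Ntrk2 is highest in astrocytes (925 to 1182), Ntrk3 in OPC (647 to 798) and Sort1 in oligodendrocytes (222 to 277).

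Of the 5 main types, Ntrk2 was highest in astrocytes, the cells that tile the tissue around synapses and vessels. Its level there was 1056 and 925 CPM in NS and 1163 and 1182 in COL, against 485 and 484 in NS neurons and 693.5 and 599 in COL neurons. Each astrocyte library exceeded every neuronal one, and neurons minus astrocytes came to -0.93 ± 0.10 on the log2 scale (edgeR adjusted p = 1.823e-07). OPC had 537 and 508 CPM in NS and 589.7 and 517 in COL, close to neurons, with a difference of neurons from OPC of 0.09 ± 0.10 (adjusted p = 0.507). After thinning to 2000 UMIs, 79.9 to 91.5% of astrocytes, 58.3 to 68.8% of neurons and 61.5 to 64.4% of OPC had an Ntrk2 UMI.

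In oligodendrocytes and microglia Ntrk2 was no higher than in T and NK cells. Oligodendrocytes had 137 and 101 CPM in NS and 143.5 and 126 in COL, and microglia had 125 and 119 in NS and 133 and 135 in COL. The T and NK cells of COL had 257 CPM (95% exact Poisson interval 187 to 344) and 174 CPM (121 to 241.5), and 37.5% and 24.6% of them had a UMI after thinning, against 15.55 to 26.3% of oligodendrocytes and 20.4 to 28.1% of microglia. The level in either glial type was thus not read as expression above that of T and NK cells, and the part of free RNA in it was not tested. It lay below neurons by 2.09 ± 0.11 in oligodendrocytes and by 2.43 ± 0.12 in microglia (edgeR adjusted p = 1.424e-12 and 7.196e-13). The small difference between them, 0.34 ± 0.11 (adjusted p = 0.0168), was -0.02 when library totals replaced TMM factors and did not pass without COL replicate 1 (0.28, adjusted p = 0.117) or NS replicate 1 (0.27, adjusted p = 0.154), nor with the clusters (0.20, 0.236), doublets removed (0.26, 0.0827), thinned nuclei (0.28, 0.145) or the stricter gate (0.28, 0.0569).

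Within neurons Ntrk2 was spread over all large classes. Thalamic glutamatergic neurons had 544 and 573 CPM in NS and 728.5 and 693 in COL. Other glutamatergic neurons had 438 and 436 in NS and 529.9 and 543 in COL, and GABA neurons had 488 and 459 in NS and 761 and 597.5 in COL. The thalamic class was highest in 3 of the 4 libraries, and GABA neurons were highest in COL replicate 1. Medial habenula neurons lay far lower, at 202 and 93.0 CPM in NS and 179 and 49.7 in COL, although the last value came from 1 nucleus.

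Of the 5 main types, Ntrk3 was highest in OPC, the proliferating cells that give rise to oligodendrocytes. OPC had 678 and 658 CPM in NS and 798 and 647 in COL. Neurons had 452 and 368 in NS and 386.5 and 501 in COL, and astrocytes had 468 and 415 in NS and 443 and 396 in COL, so all 4 OPC libraries lay above all libraries of both types. OPC exceeded astrocytes by 0.67 ± 0.14 (edgeR adjusted p = 0.000787), neurons minus OPC came to -0.68 ± 0.14 (adjusted p = 0.000448), and neurons did not differ from astrocytes beyond their spread (-0.01 ± 0.14, adjusted p = 0.9503). After thinning, 60.2 to 76.8% of OPC had an Ntrk3 UMI, against 45.4 to 57.0% of neurons and 50.0 to 56.7% of astrocytes.

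Ntrk3 was far lower in oligodendrocytes than in the OPC they derive from. Oligodendrocytes had 78.3 and 59.5 CPM in NS and 82.0 and 101 in COL, and the log2 difference of oligodendrocytes from OPC was -3.04 ± 0.15 (edgeR adjusted p = 1.856e-12). Microglia had 80.8 and 61.9 in NS and 90.1 and 118 in COL, and the T and NK cells of COL had 160 and 198.5, so neither glial type stood above those cells. Vascular fibroblasts had 801 and 735 CPM in NS and 947.5 and 427 in COL, above OPC in 3 of the 4 libraries, but from 2, 13, 10 and 12 nuclei, and were not tested.

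Among the 3 large classes, thalamic glutamatergic neurons had the least Ntrk3. It had 251 and 162 CPM in NS and 266 and 321.5 in COL. Other glutamatergic neurons had 506 and 486 in NS and 609 and 591 in COL, and GABA neurons had 507 and 449 in NS and 517 and 536 in COL. The thalamic value was the lower one in every library and for both classes. Thalamic glutamatergic neurons made up 12.96% and 21.9% of neurons in NS and 46.9% and 20.71% in COL. The pooled neuronal values were 452 and 368 CPM in NS and 386.5 and 501 in COL. COL replicate 1, with the largest thalamic share, lay below COL replicate 2 but above NS replicate 2. The part of the class mix in the pooled value was not tested.

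**Figure D3:**
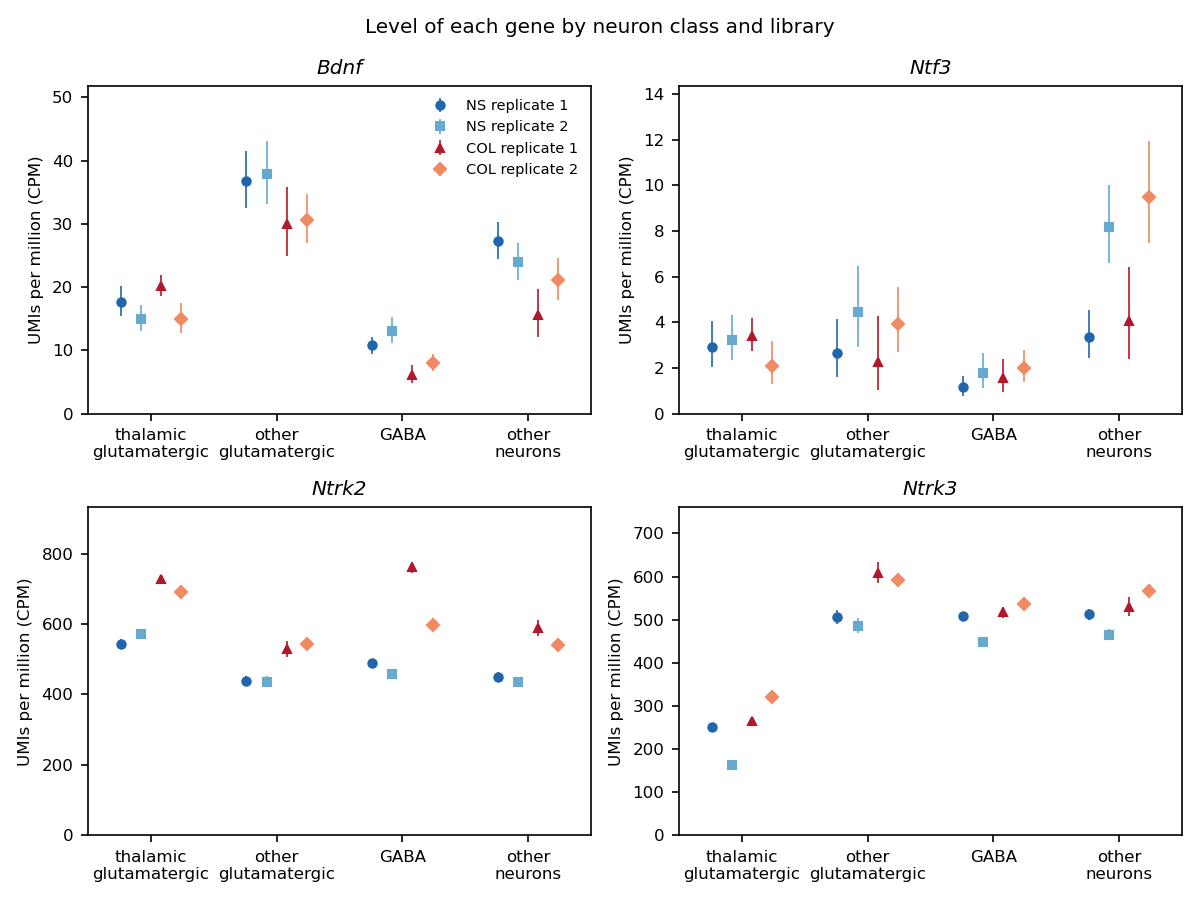
Level of Bdnf, Ntf3, Ntrk2 and Ntrk3 in CPM (UMIs per 1000000, linear axes from 0) in 4 classes of neurons, with 1 point per library and 95% exact Poisson intervals. Bdnf is highest in other glutamatergic neurons (30.0 to 37.9), and Ntrk3 is lowest in thalamic glutamatergic neurons (162 to 321.5).

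Ngfr was close to the limit of detection. The libraries held 82 and 51 UMIs in NS and 35 and 37 in COL, of which oligodendrocytes had 20 and 23 in NS and 11 and 10 in COL and neurons had 45 and 24 in NS and 22 and 18 in COL. In CPM this was 2.42 and 1.87 in NS oligodendrocytes and 1.10 and 0.873 in COL oligodendrocytes, and 0.802 and 0.536 in NS neurons and 0.44 and 0.41 in COL neurons. Oligodendrocytes were thus the higher type in each library, with intervals that overlapped in both COL libraries. Astrocytes had 4, 0, 0 and 1 UMIs, OPC had 0, 0, 0 and 1, and microglia had 0, 0, 1 and 1.

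Sort1, which also sorts proteins between the Golgi and endosomes, was highest in oligodendrocytes among the 5 main types. The level there was 222 and 277 CPM in NS and 227 and 267 in COL. Microglia followed with 187 and 187 in NS and 156 and 167 in COL, lower than every oligodendrocyte library, and the log2 difference on the TMM scale was 0.88 ± 0.12 (edgeR adjusted p = 2.251e-06). With library totals, the scale of these CPM values, it was 0.52 (adjusted p = 0.000889). Neurons had 86.7 and 101 CPM in NS and 97.4 and 92.35 in COL, and astrocytes had 95.1 and 88.7 in NS and 72.8 and 99.7 in COL. Neurons lay below microglia by 0.57 ± 0.12 (neurons minus microglia -0.57, adjusted p = 0.000228, and -0.87 with library totals) and did not differ from astrocytes beyond their spread (0.08 ± 0.12, adjusted p = 0.574).

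OPC had the lowest Sort1 level of the 5 types. They had 36.9 and 28.9 CPM in NS and 45.0 and 39.05 in COL, below the 51.4 and 59.55 of the T and NK cells of COL. Oligodendrocytes exceeded OPC by 2.82 ± 0.13 (edgeR adjusted p = 8.859e-13), which is the opposite direction to Ntrk3 in the same pair of types. After thinning, 35.6 to 41.0% of oligodendrocytes and 26.2 to 32.5% of microglia had a Sort1 UMI, against 5.28 to 7.34% of OPC and 10.4% and 13.1% of the T and NK cells. The shares of neurons (15.5 to 17.8%) and astrocytes (13.5 to 17.0%) lay inside the intervals of those cells, which reached 22.7% and 24.2%. Thalamic glutamatergic, other glutamatergic and GABA neurons and those without a class lay together, between 78.0 and 112 CPM over all libraries, and medial habenula neurons had 114 and 197.5 CPM in NS, from 19 nuclei each, and 106 and 99.4 in COL, from 98 and 1.

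Of the 40 tests between pairs of types for Bdnf, Ntrk2, Ntrk3 and Sort1, 33 passed an adjusted p of 0.05, in a setting where many genes did. The share of all genes called was 35.9% for OPC against astrocytes, 44.5% and 44.6% for oligodendrocytes against OPC and against astrocytes, 46.9% for oligodendrocytes against microglia and 47.3% for neurons against OPC. It was 49.0% for astrocytes against microglia, 49.3% for OPC against microglia, 57.4% for neurons against astrocytes, 68.6% for neurons against microglia and 70.5% for neurons against oligodendrocytes. A call between types is therefore common, and the order and the size of the differences carry the description.

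Some other genes followed the same pattern over the 20 sums of type and library, as log CPM correlated by Pearson's r. This is a description across sums that share libraries, with no test. Nearest to Bdnf were Gm28539 (r = 0.8999), Smim14 (0.895) and Necab3 (0.888). Nearest to Ntrk2 were Rora (0.989), Ctnnd2 (0.988) and Ntm (0.985), and nearest to Ntrk3 were Ptprg (0.983), Ptprt (0.980) and Pde8b (0.978). Nearest to Sort1 were Rps6ka5 (0.949), Gm48585 (0.940) and B3galt5 (0.935).

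In the main edgeR fits no change of the 6 genes between COL and NS passed the threshold. Some alternative settings called Ntrk2 or Ntrk3, as given below. Macrophages, T and NK cells, vascular cells and medial habenula neurons were not compared. Of 36 tests in 5 types and 3 neuron classes, which leave out genes below the filter (3 of the 6 were tested in OPC and in microglia, 4 in astrocytes), edgeR called 0, with 9 at an unadjusted p under 0.05, and DESeq2 called 1. The share of all genes called was 0.00842% in neurons, 0% in thalamic glutamatergic, other glutamatergic and GABA neurons, 17.1% in astrocytes, 17.0% in OPC, 21.4% in oligodendrocytes and 26.4% in microglia. An unadjusted edgeR p under 0.05 was common over all genes too. It was reached by 6698 of 23751 genes in neurons, 6705 of 17763 in oligodendrocytes and 3735 of 12047 in OPC. In astrocytes these were 4238 of 13364 and in microglia 4431 of 11543. Thalamic glutamatergic, other glutamatergic and GABA neurons had 3898 of 18321, 4495 of 17073 and 5754 of 19882. The 9 of 36 are thus no result about the 6 genes. In neurons edgeR called 2 of all genes and DESeq2 called 2493, so the tools differ widely there. In all nuclei, 0 of the 6 genes passed against 9.45% of all genes, and in such sums fewer cells of a type and less RNA per cell cannot be told apart.

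The receptor Ntrk2 came nearest to a change in neurons. From the levels given above, its log2 change in COL was 0.59 ± 0.20 in neurons (95% interval 0.09 to 1.08, edgeR adjusted p = 0.140), with 693.5 and 599 CPM in COL and 485 and 484 in NS. In GABA neurons it was 0.67 ± 0.20 (0.19 to 1.15, adjusted p = 0.102), in other glutamatergic neurons 0.40 ± 0.13 (adjusted p = 0.116) and in thalamic glutamatergic neurons 0.35 ± 0.15 (adjusted p = 0.226). Both COL libraries lay above both NS libraries in all 3 classes, and COL replicate 1 had the higher value in GABA and thalamic neurons. Without COL replicate 2, where COL is 1 pool whose spread is taken from the NS pair, the change was 0.72 in neurons, 0.86 in GABA neurons and 0.55 in all nuclei. DESeq2 called Ntrk2 in GABA neurons (0.68, adjusted p = 0.0211), where it called 9.07% of all genes. With no filter on low counts edgeR called GABA neurons (0.68, adjusted p = 0.000353) and other glutamatergic neurons (0.42, adjusted p = 0.0339), where 12.4% and 9.37% of all genes were called. In glia Ntrk2 had smaller values, 0.31 ± 0.15 in astrocytes (adjusted p = 0.177), 0.28 ± 0.19 in oligodendrocytes, 0.13 ± 0.14 in OPC and 0.19 ± 0.18 in microglia.

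Ntrk3 came nearest in oligodendrocytes and microglia, the types where its level was no higher than in T and NK cells. The log2 change was 0.50 ± 0.17 in oligodendrocytes (95% interval 0.11 to 0.88, edgeR adjusted p = 0.0687) and 0.60 ± 0.23 in microglia (0.12 to 1.09, adjusted p = 0.0611). Both passed with the cluster assignment (0.62 and 0.85, adjusted p = 0.0338 and 0.0185) and with the replicate block (0.50 and 0.59, adjusted p = 0.0383 and 0.0325), where the share of all genes called was 22.2% and 29.0% with the clusters and 32.2% and 31.8% with the block, and both passed without COL replicate 1 (0.57 and 0.77, adjusted p = 0.00925 and 0.0159), where 21.1% and 22.6% of all genes did. In oligodendrocytes the call was also made with doublets removed (0.69, adjusted p = 0.0284), thinned nuclei (0.65, 0.0261) and the stricter gate (0.68, 0.0293), where 21.6%, 24.1% and 21.9% of all genes were called, and in microglia with no filter (0.69, 0.0343), where 13.8% were, whereas without COL replicate 2, NS replicate 1 or NS replicate 2 neither type passed. In thalamic glutamatergic neurons the change was 0.51 ± 0.20 (adjusted p = 0.196), and 0.83 without NS replicate 1 (adjusted p = 0.0182), the higher of the NS pair, where 9.51% of all genes passed against 0% with all libraries. Other glutamatergic neurons had 0.38 ± 0.13 (adjusted p = 0.135), which passed with no filter (0.40, adjusted p = 0.044), GABA neurons had 0.28 ± 0.14 (adjusted p = 0.237) and all neurons 0.27 ± 0.16 (adjusted p = 0.316). In OPC, its highest main type, the change was 0.16 ± 0.15 (adjusted p = 0.514), with COL replicate 1 highest at 798 CPM and COL replicate 2 lowest at 647, and it was 0.35 without COL replicate 2 (adjusted p = 0.0201), where 22.4% of all genes passed. In astrocytes it was -0.01 ± 0.15.

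The ligands showed no change past the threshold in either direction. In neurons the Bdnf change was -0.10 ± 0.16 (95% interval -0.50 to 0.30, edgeR adjusted p = 0.708), so the largest rise inside the interval was 0.30 on the log2 scale. Thalamic glutamatergic neurons had 0.13 ± 0.22 (-0.39 to 0.65, adjusted p = 0.787). GABA neurons had the lowest value, -0.62 ± 0.23 (-1.18 to -0.05, adjusted p = 0.148), with both COL libraries (6.145 and 7.96 CPM) under both NS libraries. Other glutamatergic neurons had -0.20 ± 0.15 (adjusted p = 0.441), oligodendrocytes -0.47 ± 0.29 (adjusted p = 0.257) and all nuclei -0.18 ± 0.18 (adjusted p = 0.504). The Ntf3 change was 0.17 ± 0.39 in neurons (-0.78 to 1.11, adjusted p = 0.794).

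**Figure D4:**
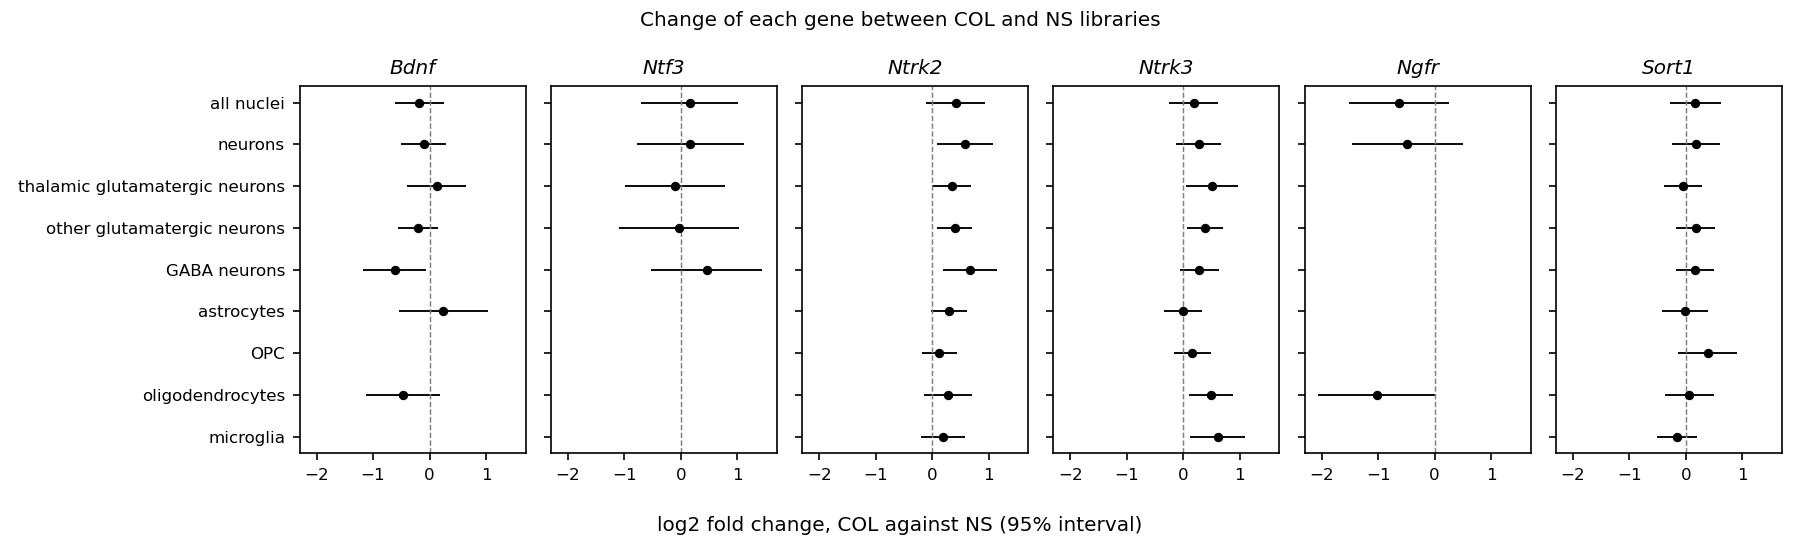
log2 fold change of each gene in COL against NS from edgeR (points) with its 95% interval (lines) in all nuclei, the 5 types and 3 neuron classes; rows without a point fell below the filter on low counts. No adjusted p passed 0.05, and the lowest were those of Ntrk3 in microglia (0.0611) and oligodendrocytes (0.0687).

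The p75 and sortilin genes also stayed short of the threshold. Ngfr had a change of -1.02 ± 0.46 in oligodendrocytes (95% interval -2.07 to 0.03, edgeR adjusted p = 0.142) from 20 and 23 UMIs in NS and 11 and 10 in COL. In neurons Ngfr had -0.48 ± 0.40 (adjusted p = 0.454). Sort1 had 0.06 ± 0.19 in oligodendrocytes (adjusted p = 0.838), where it was highest, -0.16 ± 0.17 in microglia (adjusted p = 0.524) and 0.18 ± 0.17 in neurons (adjusted p = 0.514). In OPC Sort1 had 0.39 ± 0.24 (adjusted p = 0.312).

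With 2 libraries a group, a lack of overlap is common. In plain CPM the groups did not overlap for 58.8% of all genes in neurons, and for 3 of the 6 genes (Ntrk2 above in COL, Bdnf and Ngfr below). The same 3 genes did so in all nuclei, where the share of all genes was 63.1%. It was 68.0% in oligodendrocytes (Ntrk3 above, Bdnf and Ngfr below), 65.6% in microglia (Ntrk2 and Ntrk3 above, Sort1 below), 60.9% in astrocytes (Ntrk2 above) and 59.6% in OPC (Sort1 above). In neuron classes it was 51.9% in thalamic glutamatergic (Ntrk2 and Ntrk3 above), 57.9% in other glutamatergic and 60.6% in GABA neurons (both with Ntrk2 and Ntrk3 above and Bdnf below). The mean TMM factor of COL was lower than that of NS by 0.162 on the log2 scale in neurons and 0.151 in all nuclei. In neurons the factors were 1.1 and 1.018 in NS and 0.8785 and 1.017 in COL, so replicates 2 were nearly equal. In all nuclei COL replicate 2 (1.022) lay above NS replicate 2 (1.014). With these factors the Bdnf values of the groups in neurons, apart in plain CPM, overlapped on the TMM scale.

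Gene length moved with the groups, and Ntrk2 and Ntrk3 are among the longest genes. In every fit the median log2 change of genes of 300 kb or more was above 0: 0.28 in neurons, 0.31 in GABA neurons, 0.26 in other glutamatergic and 0.15 in thalamic glutamatergic neurons, 0.60 in oligodendrocytes, 0.23 in OPC, 0.53 in astrocytes and 0.85 in microglia. Genes under 20 kb, such as Ngfr, had medians from -0.39 to -0.18. The Ntrk2 values were above the medians of the long genes in neurons (0.59) and in each of the 3 classes (0.35 to 0.67) and below them in all 4 glial types (0.13 to 0.31). The Ntrk3 values were above them in thalamic glutamatergic (0.51) and other glutamatergic neurons (0.38), and below them in all neurons (0.27), GABA neurons (0.28) and all 4 glial types (-0.01 to 0.60). The part of gene length in these changes was not tested.

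The change in COL was not shown to differ between cell types for any of the genes. Of 40 interaction tests for Bdnf, Ntrk2, Ntrk3 and Sort1 edgeR called 0, with 7 at an unadjusted p under 0.05. Over all 17393 genes tested, 1811 (OPC against astrocytes) to 3958 (neurons against microglia) had such a p in a pair of types. The 7 of 40 are thus no result about these genes. The lowest adjusted p of edgeR was 0.0802, for Ntrk3 in astrocytes against microglia (-0.77 ± 0.24). Ntrk3 in oligodendrocytes against astrocytes followed (0.58 ± 0.18, adjusted p = 0.100). Without COL replicate 1, which leaves COL as 1 pool, the 2 differences were -1.02 and 0.73. Both passed with no filter (-0.81 and 0.59, adjusted p = 0.014 and 0.02), where the share of all genes called is not given here. For Ntrk2 the difference of neurons from OPC was 0.42 ± 0.16 (adjusted p = 0.231). The share of all genes called was 1.37% for OPC against astrocytes, 1.96% for neurons against OPC, 2.16% for oligodendrocytes against astrocytes, 3.42% for neurons against astrocytes, 3.59% for astrocytes against microglia and 3.74% for oligodendrocytes against OPC. It was 4.84% for OPC against microglia, 6.71% for oligodendrocytes against microglia, 8.73% for neurons against oligodendrocytes and 10.5% for neurons against microglia.

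In neurons no gene of the wider pathway was called, as was nearly the case for all genes. In all neurons 4 sortilin relatives, 10 genes of the p75 list, 29 Trk adaptors and effectors, 9 genes of proneurotrophin processing and 16 activity-induced genes were tested. In thalamic glutamatergic, other glutamatergic and GABA neurons the processing genes tested were 7, 7 and 9 and the activity-induced ones 14, 12 and 14. Of these lists edgeR called 0 in neurons and in each of the 3 classes, where 0.00842% and 0% of all genes were called. These counts thus equal the background and are no result about the pathway. Ntf5, which encodes neurotrophin-4, had 4, 3, 2 and 1 UMIs over all nuclei and fell below the filter. The medians of the lists in neurons were 0.41, -0.12, 0.22, 0.26 and -0.20 on the log2 scale, beside 0.02 over all genes. The activity-induced list, which holds Fos, Arc and Npas4, had 5 of 16 members with a positive value in neurons. Over all genes in neurons the positive share rose with length, from 37.65% of those under 20 kb (median -0.23) to 88.6% of those of 300 kb or more. The list holds short genes such as Fos (3.384 kb) and longer ones such as Homer1 (105.5 kb). The part of gene length in the value of the list was not tested.

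In glia, some p75 partners were lowered and some sortilin relatives were raised. Bex3, whose product binds the p75 intracellular domain, was lowered in all 4 glial types, from -1.74 ± 0.32 in OPC to -2.71 ± 0.37 in microglia (edgeR adjusted p = 0.00291 and 0.000121). Maged1, another p75 partner, was lowered in oligodendrocytes (-1.02 ± 0.23), astrocytes (-1.09 ± 0.27) and microglia (-1.55 ± 0.26). Ngrn, which is counted in the p75 list without a claim that its product binds p75, was lowered in oligodendrocytes (-1.29 ± 0.27). Of the p75 list 4 of 10 tested genes were lowered in oligodendrocytes, 1 of 9 in OPC, 2 of 10 in astrocytes and 3 of 8 in microglia, with Traf6 (-0.71 ± 0.20, named after its value was seen) in oligodendrocytes and Rtn4 (-0.54 ± 0.15) in microglia completing them, and none was raised. Over all genes the share lowered was 11.7% in oligodendrocytes, 9.44% in OPC, 9.13% in astrocytes and 13.2% in microglia, so the 1 of 9 in OPC (11.1%) was near that share, against 40.0%, 20.0% and 37.5% of the list in the other types. The medians of this list were -0.35, -0.36, -0.70 and -0.53 in that order, beside 0.01, -0.02, -0.03 and 0.02 over all genes. Genes under 20 kb had medians of -0.30, -0.37, -0.38 and -0.39 in the same order. Bex3, Maged1 and Ngrn span 1.73, 6.67 and 4.16 kb, whereas Traf6 and Rtn4 span 23.24 and 51.38 kb. Sorcs1, a sortilin relative, was raised in astrocytes (1.36 ± 0.20) and microglia (0.97 ± 0.20), Sorcs3 in the same types (0.85 ± 0.21 and 0.73 ± 0.23) and Sorcs2 in oligodendrocytes (1.16 ± 0.24) and OPC (0.81 ± 0.22). These were 2 of 4 tested sortilin relatives in astrocytes and in microglia and 1 of 4 in oligodendrocytes and in OPC, where 7.97%, 13.2%, 9.66% and 7.54% of all genes were raised. Sorcs1, Sorcs2 and Sorcs3 span 535.3, 381 and 599.5 kb. Genes of 300 kb or more had medians of 0.53, 0.85, 0.60 and 0.23 in those types, and Sorcs3 in microglia lay below that median. The part of gene length in these calls was not tested.

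Among Trk adaptors and effectors 3 of 29 tested genes were raised and 1 lowered in oligodendrocytes, 3 and 1 of 28 in OPC, 1 and 1 of 28 in astrocytes and 1 and 1 of 26 in microglia, with list medians from 0.05 to 0.22. The share of this list called was 13.8%, 14.3%, 7.14% and 7.69% in that order, below the 21.4%, 17.0%, 17.1% and 26.4% of all genes. Nedd4l, a ubiquitin ligase, was raised in all 4 types (0.71 ± 0.17 to 1.10 ± 0.23), and the GTPase gene Hras was lowered in oligodendrocytes (-1.79 ± 0.35), astrocytes (-1.52 ± 0.38) and microglia (-2.81 ± 0.39). Shc3 was raised in oligodendrocytes (1.13 ± 0.27) and Pik3r1 in OPC (0.54 ± 0.14), where Shc2 was lowered (-0.85 ± 0.26). Of the processing genes, the protease gene Pcsk5 was raised in astrocytes (1.02 ± 0.31, but -0.024 after thinning and not called with DESeq2, library totals or the stricter gate) and microglia (1.46 ± 0.45, not called with DESeq2 or the stricter gate) and Cpe, carboxypeptidase E, in astrocytes (0.80 ± 0.17), with 0 of 8 tested called in oligodendrocytes and 0 of 7 in OPC. The 2 of 7 in astrocytes (28.6%) and 1 of 5 in microglia (20.0%) stood beside 17.1% and 26.4% of all genes.

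Of the activity-induced genes, Fos (1.87 ± 0.32) and Homer1 (0.67 ± 0.20) were raised and Vgf (-0.70 ± 0.18) was lowered in oligodendrocytes, Fos was raised in astrocytes (1.61 ± 0.49) and Vgf was lowered in microglia (-1.48 ± 0.29). These were 3 of 12 tested members in oligodendrocytes (25.0%), 1 of 9 in astrocytes (11.1%) and 1 of 5 in microglia (20.0%), with 0 of 4 in OPC, beside 21.4%, 17.1%, 26.4% and 17.0% of all genes, so the list was near or below the background. In all nuclei Bex3 (-1.70 ± 0.29), Hras (-1.46 ± 0.30) and Ngrn (-0.97 ± 0.20) were lowered and Dusp6 was raised (1.11 ± 0.26). These were 2 of 10 tested genes of the p75 list (20%), 1 of 29 Trk adaptors and effectors (3.45%) and 1 of 16 activity-induced genes (6.25%), beside 9.45% of all genes. The 13 raised genes had a median length of 105.5 kb and the 8 lowered ones 6.82 kb, in the direction of the length trend given above, whose part in these calls was not tested.

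Many of these calls were lost when 1 library was left out, which leaves a group of 1 pool and fewer degrees of freedom. Of the 38 calls of list genes named here, 21 were lost in this way, 6 of them with 1 of the libraries only, 6 with either of 2, 8 with any of 3 and 1, Fos in astrocytes, with any of the 4. The log2 change kept its sign in all 46 such losses and was 0.608 to 1.24 times its value with all libraries (median 0.929). Without NS replicate 1 the lost ones numbered 17 (adjusted p from 0.058 to 0.382), namely Cpe, Fos, Maged1 and Nedd4l in astrocytes, Homer1, Maged1, Ngrn and Vgf in oligodendrocytes, Nedd4l, Pik3r1, Shc2 and Sorcs2 in OPC, Pcsk5, Rtn4 and Sorcs3 in microglia and Dusp6 and Ngrn in all nuclei. Without NS replicate 2 there were 15 (0.0589 to 0.404), Fos, Nedd4l, Pcsk5 and Sorcs3 in astrocytes, Homer1, Traf6 and Vgf in oligodendrocytes, Pik3r1, Shc2 and Sorcs2 in OPC, Pcsk5, Rtn4 and Sorcs3 in microglia and Dusp6 and Ngrn in all nuclei. Leaving out COL replicate 1 took 11 (0.0641 to 0.233), Fos, Hras, Maged1, Nedd4l, Pcsk5 and Sorcs3 in astrocytes, Homer1 in oligodendrocytes, Pcsk5 and Sorcs3 in microglia and Dusp6 and Ngrn in all nuclei, and leaving out COL replicate 2 took 3 (0.0969 to 0.116), Fos and Pcsk5 in astrocytes and Shc2 in OPC. DESeq2 did not call 9 of the 38, and 5 were lost after thinning, 5 with library totals, 2 with the stricter gate, 2 with doublets removed and 1 with RLE size factors. Bex3 in all 4 glial types, Sorcs1 in both types, Sorcs2 and Shc3 in oligodendrocytes and Hras in oligodendrocytes and microglia passed without each library.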

How the data were processed

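Nuclei from thalamic tissue of WT mice were sequenced in 4 libraries, each a pool of 3 mice. The deposited files hold UMI counts per gene and nucleus, which the authors made with Cell Ranger 1.2.0 from reads aligned to mm10. Whether intronic reads were counted is not given in the sources used here, nor is any removal of doublets or free RNA. Nuclei with more than 50 genes and under 5% mitochondrial UMIs were kept, as in the study's methods, which removed 5 to 16 barcodes per library.

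The cell type of a nucleus was set by the mean log-normalized level (scale 10000) of its marker lists. The 5 main types needed a score of at least 0.7, at least 3 markers detected and a lead of 1.5 times over the next main type. Rare types, T and NK cells among them, needed a score of at least 0.4 and 3 markers, without that lead. Such nuclei became mixed if another rare type also passed. They also did if a main type scored at least 0.7 and no less than the rare type, with microglia not counted against macrophages. All others were mixed or unassigned. Among neurons, the thalamic class needed a thalamic score of at least 0.7, 3 of its markers and no fewer glutamatergic than GABA transmitter UMIs. It could thus hold nuclei without a transmitter UMI. Other glutamatergic and GABA neurons needed at least 2 UMIs of their transmitter genes and 1.5 times those of the other transmitter. These limits were set after the files had been seen. Within 1.2 times of a limit lay 811 neurons, 278 oligodendrocytes, 99 OPC, 349 astrocytes and 233 microglia. The medians of the other main types' scores were at most 0.517 in OPC, 0.459 in astrocytes, 0.532 in microglia, 0.365 in neurons and 0.405 in oligodendrocytes, against 1.3 to 1.97 for the type's own. The clusters, made from 5000 variable genes without the 6 members, gave 95.4 to 99.5% of these 5 types the same name. Doublets were kept in the main analysis, and the nuclei with the highest simulated-doublet scores (0.8% per 1000 nuclei) were removed as an alternative.

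UMI counts were summed per library and type, with at least 20 nuclei in each sum, and tested with edgeR 4.0.16 in R 4.3.3 (TMM, filterByExpr, glmQLFit and glmQLFTest, Benjamini-Hochberg over all genes tested, threshold 0.05). COL was compared with NS within each type, levels between types in 1 fit of 20 sums with library as a block, and the interaction in the same sums. CPM in the text is UMIs of the gene per 1000000 UMIs of the sum, with exact Poisson intervals of 95%. Shares of nuclei were taken after thinning to 2000 UMIs without shallower nuclei, with Clopper-Pearson intervals. Intervals cover counting error only. The fits were tested on simulated data with 200 changed genes, the same spread set for every gene and no difference between libraries other than depth. For COL against NS edgeR recovered 62% of 2-fold and 96% of 4-fold changes in neurons, 62% and 97% in oligodendrocytes, 54% and 90% in OPC, 43% and 91% in astrocytes and 36% and 92% in microglia. For levels of neurons against astrocytes it recovered 59% and 76%. For the interaction in that pair it recovered 13% and 47%, so a 2-fold difference of the change would mostly be missed even there. The spread of the real libraries was not simulated, so these shares do not give the power of the fits reported here. Alternatives used DESeq2 1.42.0, other size factors, no filter, left-out libraries, a replicate block, a stricter gate, the clusters, doublet removal, at least 500 genes per nucleus and thinned nuclei, and library totals in place of TMM factors were added after the data had been seen.

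The 6 genes, the pathway lists and the tests were chosen with earlier results of these data known. All 6 genes were named in each type, and from each list the 3 called genes with the largest change per type, with Ntf5 in any case. Some genes that the lists hold are not reported here. Traf6 was named beyond this rule. The genes of like pattern were the 3 with the highest Pearson's r. Ntrk3 and Sort1 promoter windows and protein sequences were not analysed here.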

Additional observations from a re-analysis of the deposited data

How the results depend on the processing

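For COL against NS within types, 0 of 36 tests of the 6 genes passed, as with RLE size factors, at least 500 genes per nucleus and library totals. DESeq2, doublet removal, thinning to 2000 UMIs and the stricter gate each passed 1, the clusters and the replicate block 2, no filter 4 (of 48), and left-out libraries 0 to 3. The labels' replicate numbers say nothing of shared animals and the deviations of same-numbered libraries correlated by 0.04 to 0.27, so the block was read as an alternative only: it added Ntrk3 in microglia (0.59) and oligodendrocytes (0.50) and no other call of the 6 genes. In all nuclei the count was 0, and 0 to 1 without a library. Between types 33 of 40 passed, 29 to 33 of 40 under the alternatives that tested the same 4 genes and 42 of 60 with no filter. The interaction passed 0 of 40, 2 of 60 with no filter and 1 with the stricter gate. The 2 were those of Ntrk3 given above, and the 1 was another test. The share of all genes called in these 2 settings is not given here, so the counts are no result about the genes. Counts over all genes moved more: in neurons from 2 to 2493 with DESeq2, 2928 with no filter, 827 after thinning, 1431 with the block and 0 to 5271 without a library, and in GABA neurons from 0 to 1804, 4347, 525, 2501 and 0 to 2866. Over all alternatives the counts ran from 0 to 2979 in other and 0 to 2597 in thalamic glutamatergic neurons, 2138 to 7038 in oligodendrocytes (3798 as reported), 734 to 2854 in OPC (2045), 1008 to 3016 in astrocytes (2285), 1477 to 3667 in microglia (3050) and 1213 to 7012 in all nuclei (2416). Library totals moved the median of all genes between types by about 0.3 where microglia were compared, for example to -0.31 for oligodendrocytes minus microglia from 0.05. The cause of these moves was not tested.

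The shares of nuclei with a UMI fell with thinning depth by construction: at 1000 UMIs and without thinning, Bdnf in neurons came to 1.59% and 15.03% (3.29% at 2000 UMIs), Ntrk2 in astrocytes to 64.4% and 96.0% (85.4%), Ntrk3 in OPC to 48.2% and 92.2% (69.0%) and Sort1 in oligodendrocytes to 21.9% and 59.9% (37.5%).

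Changes of sign were all between values short of the threshold, except Pcsk5 in astrocytes (-0.024 after thinning) and the Ntrk2 difference of oligodendrocytes from microglia (-0.024 with library totals). After thinning, Bdnf in thalamic glutamatergic neurons was -0.21, Ntrk2 in microglia -0.050, Ntrk3 in astrocytes 0.046, Sort1 in OPC -0.086, in oligodendrocytes -0.000724 and in thalamic glutamatergic neurons 0.044. Ntf3 in thalamic glutamatergic neurons was 0.24 with doublets removed and 0.074 with the stricter gate. Ntrk3 in astrocytes was 0.014 with DESeq2, 0.014 with RLE factors and 0.090 with the stricter gate, and Sort1 there 0.0031, 0.010, 0.072 and 0.0042 with the clusters. Sort1 in oligodendrocytes was -0.014 with library totals. Left-out libraries gave Bdnf -0.22 to 0.74 in astrocytes and -0.16 to 0.38 in thalamic glutamatergic neurons, Ntf3 -0.22 to 0.67 in all nuclei, -0.26 to 0.77 in neurons, -0.52 to 0.41 in other and -0.61 to 0.22 in thalamic glutamatergic neurons, Ntrk3 -0.020 to 0.35 in OPC and -0.10 to 0.088 in astrocytes, and Sort1 -0.051 to 0.43 in all nuclei, -0.25 to 0.17 in astrocytes, -0.14 to 0.29 in oligodendrocytes and -0.18 to 0.12 in thalamic glutamatergic neurons.

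Between types, Bdnf in OPC minus microglia was -0.18 with library totals, -0.30 with the stricter gate and -0.25 to 0.26 without a library, in oligodendrocytes minus OPC -0.070 with the clusters and -0.047 to 0.49 without a library, and in oligodendrocytes minus microglia -0.16 with library totals. Ntrk3 in neurons minus astrocytes was 0.0096 with the clusters, 0.13 with no filter, 0.10 after thinning and -0.10 to 0.056 without a library, and in oligodendrocytes minus microglia -0.036 with the clusters and -0.17 with library totals.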

Other observations

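Macrophages were found almost only in COL, with 110 and 101 nuclei against 0 and 5 in NS, and their groups were not compared. In COL they had 152 and 94.7 CPM of Ntrk2, 94.2 and 84.9 CPM of Ntrk3 and 97.7 and 68.55 CPM of Sort1. Their Ntrk2 and Ntrk3 values were no higher than those of the T and NK cells of the same libraries, 257 and 174 CPM for Ntrk2 and 160 and 198.5 CPM for Ntrk3. Ntf3 and Ngfr had 0 UMIs in the macrophages of each library, which allows a level of up to 5.23 and 4.90 CPM in the COL libraries (3 counts of the total).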
